A study of Homo sapiens with 148 samples.

Results

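The PH stage and the SC-β organoids were compared in a series that follows the differentiation of H9 cells, an established human embryonic stem cell (hESC) line, towards pancreatic islet cells. Both groups were WT, came from H9 cells and carried the same label for treatment, a pancreatic differentiation. SC-β organoids, which the labels call beta cells made in vitro, were collected at day 35 of the protocol. The cells labelled PH have no collection day and no definition in the labels or in the study's methods, so the abbreviation is used here as it stands. Both are whole cultures from a single cell line, and the methods describe no sorting of cells before the RNA was extracted. RNA-seq contributed 4 of the series' 148 samples to this comparison, as 2 replicates per stage, out of 12 RNA-seq samples over 6 stages. The authors deposited a single mean per gene and stage, in TPM, a unit that corrects read numbers for the length of each transcript and sets all libraries to a common total.

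Genes were chosen by level alone. Of 49085 gene names, 11330 had 10 TPM or more in the PH mean or in the SC-β mean, and these were compared by the log2 of (TPM + 1) in SC-β organoids over (TPM + 1) in PH. A negative log2 ratio therefore marks a gene that was higher in PH, and the added 1 TPM understates the ratio of low genes. Every value is the authors' mean of 2 replicates, so there is no spread, no test and no replicate check behind any difference. A gene was called different when its means lay at least 2-fold apart on that scale. SHH entered at 10.9 TPM in its higher stage and SYT7 stayed out at 9.99 TPM. CDK1 was called at 39.4 TPM in PH and 79.8 TPM in SC-β organoids, and CCNA2 was not at 27.1 TPM in PH and 55 TPM in SC-β organoids. A gene that reached 10 TPM in only 1 of the stages had to differ to some extent, so counts of genes over that level are descriptions. Where a pair of values is given without stage names, the first is that of PH.

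In vertebrate development the endoderm gives rise to gut, liver and pancreas, and the hormone-secreting cells of the pancreatic islet arise from its epithelium. Neurons of the brain and spinal cord arise from the neuroectoderm, where Notch signalling holds cells as progenitors while their neighbours become neurons. Islet cells and neurons use many of the same transcription factors and secretory proteins, which is why single markers seldom separate the 2 lineages.

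PH had the higher values for RNAs of neural progenitors, neurons and spinal interneurons, for most genes of the HOXB cluster and for several Notch components. SC-β organoids had the higher values for islet hormones, liver and gut secreted proteins, epithelial junction genes, smooth muscle genes, a set of mesenchymal regulators and mitochondrially encoded RNAs. The 2-fold level was passed by 2527 of the 11330 genes (22.3%) towards SC-β organoids and by 555 (4.9%) towards PH. Counts of called members in the lists below are to be read beside these 2-fold shares. At 4-fold the shares were 5.47% and 1.97%. All 11330 genes together had a median log2 ratio of 0.49, so the typical gene was itself higher in SC-β organoids. When both stages were rescaled by the median ratio of the 18462 genes with at least 1 TPM in both, a shift of 0.50, the calls became 917 (9.06%) and 1003 (9.91%) of 10116 genes. The share of calls that were higher in SC-β organoids thus went from 82.0% as deposited to 47.8% after rescaling, and list medians are given on both scales, with the rescaled value in parentheses.

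**Figure D1:**
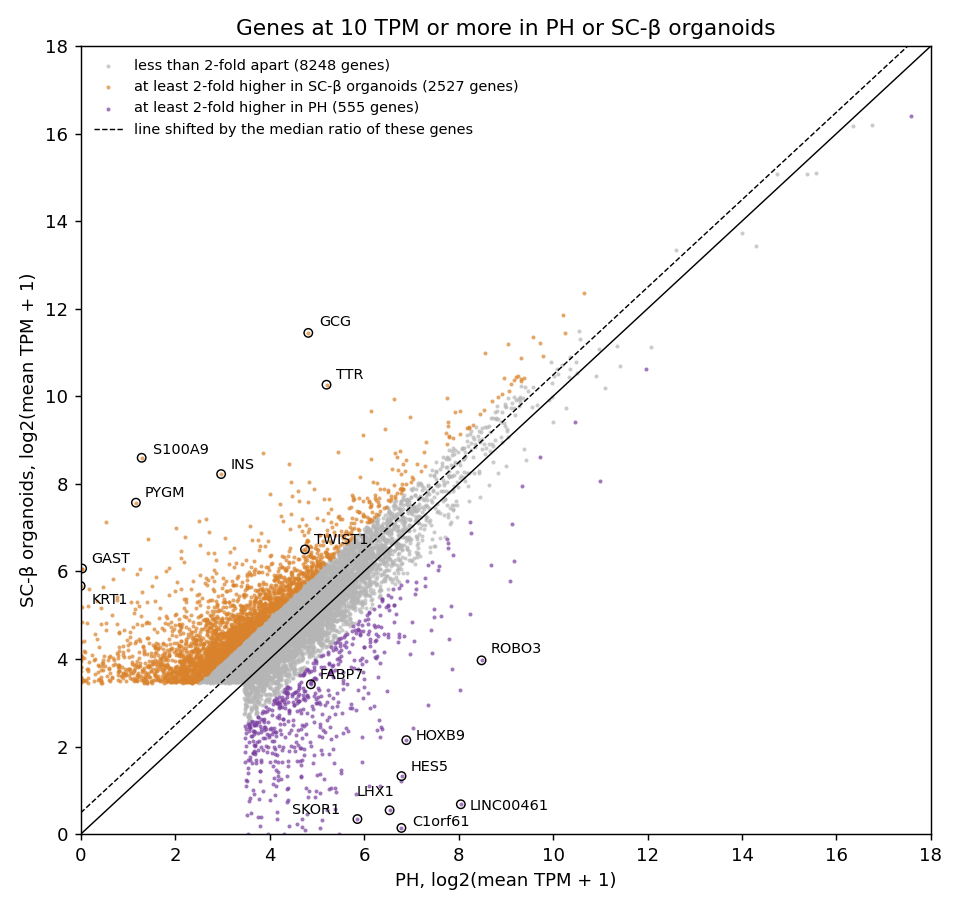
Each point is 1 of the 11330 compared genes, with its level in PH on the x axis and in SC-β organoids on the y axis, both as log2 of the authors' mean TPM + 1. The solid line marks equal levels, the dashed line is shifted by the median log2 ratio of 0.49, and circles mark named genes. Points above the lines outnumber those below (2527 against 555 at 2-fold), and LINC00461 and GCG lie farthest out among the circled genes of each side, apart from S100A9.

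The total in TPM was divided differently in the 2 stages. A set of 6 abundant structural RNAs (RMRP, RPPH1, Metazoa_SRP, RN7SL1, RN7SL2 and RN7SK) held 50.9% of all TPM in PH and 33.9% in SC-β organoids. RN7SK, which restrains transcription elongation, was the one of these 6 that was called, higher in PH with a log2 ratio of -1.17. Because the sum of all TPM is fixed, every other gene's value depends on that share. Genes at 1 TPM or more numbered 19548 in PH and 24571 in SC-β organoids, and genes at 100 TPM or more numbered 580 and 833.

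GCG, which encodes the islet hormone glucagon, was listed at 0 TPM in hESCs, DE (definitive endoderm) and PGT (primitive gut tube-like cells), at 16.5 TPM in PP (pancreatic progenitors), 27.2 TPM in PH and 2793 TPM in SC-β organoids. TWIST1, a mesenchymal transcription factor, had a log2 ratio of 1.75, and FABP7, a fatty acid-binding protein of radial glia, one of -1.45. The PH label could be set against no expected marker. Of the islet markers set against the SC-β label, INS, GCG, SST and CHGA were all above their PH levels. INS, which encodes the hormone of beta cells, was at 298 TPM in SC-β organoids, below GCG. CHGB was at 19.6 TPM in PH and 16 TPM in SC-β organoids. MAFA, a factor of mature beta cells, was at 0.623 TPM in PH and 0.401 TPM in SC-β organoids. In RNA from a whole culture, fewer cells of a type and less RNA per cell cannot be told apart, and this holds for every value here.

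**Figure D2:**
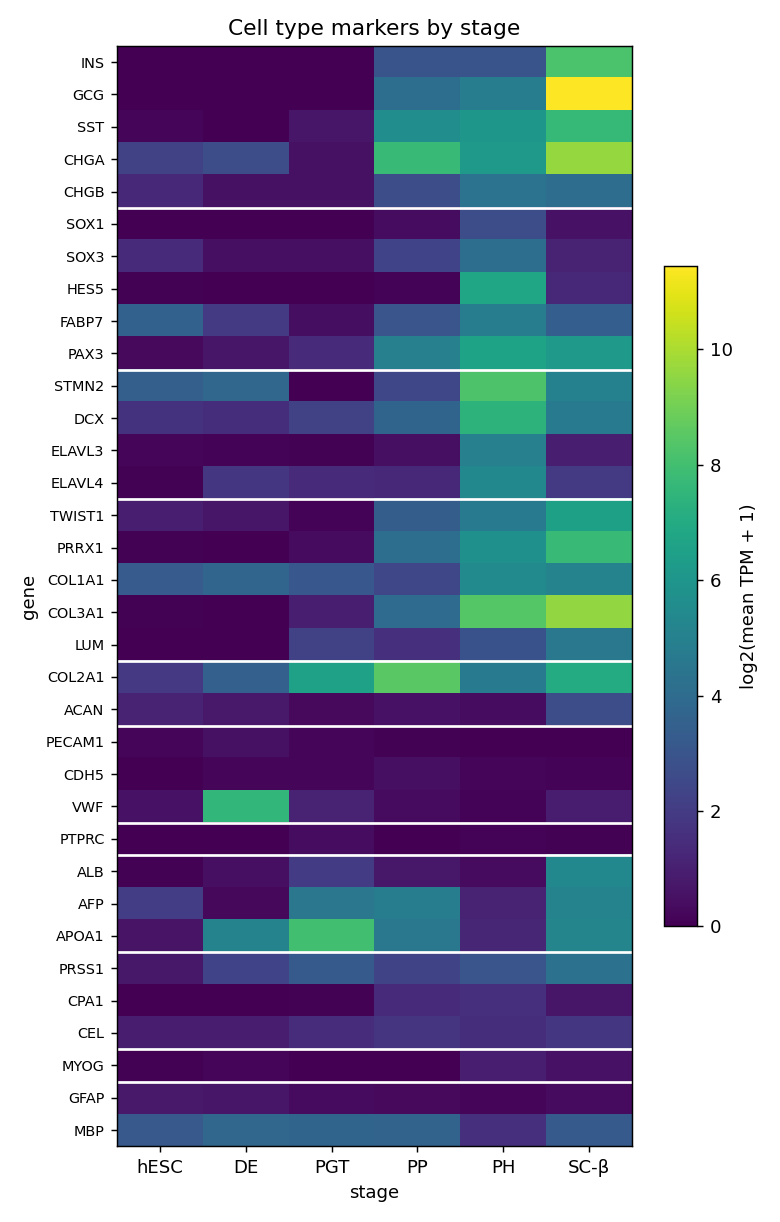
Levels of marker genes in the 6 stages, as log2 of the authors' mean TPM + 1 (colour scale), with white lines between groups of markers (islet, neural progenitor, neuron, mesenchyme, cartilage, endothelium, blood, liver, exocrine pancreas, muscle, glia). The neural progenitor and neuron rows are mostly brighter in PH, the islet hormone and liver rows are brighter in SC-β organoids than in PH, and endothelial and blood rows are dark in both.

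Of the 555 genes higher in PH, 492 (88.6%) had their highest value of all 6 stages in PH, and 470 (84.7%) were also at least 2-fold higher in PH than in PP. Of these, 102 (18.4%) were below 1 TPM in PP, against 111 (4.39%) of the 2527 genes higher in SC-β organoids. The 2527 genes higher in SC-β organoids were placed differently: 1320 (52.2%) peaked in SC-β organoids, 1592 were within 2-fold of their PP level, and 1047 (41.4%) were also at least 2-fold higher in PP than in PH. Among all 11330 genes, 14.1% had their highest value in PH and 31.9% in SC-β organoids, 9.48% were at least 2-fold higher in PH than in PP and 12.2% at least 2-fold higher in PP than in PH. No share over all genes is given for those below 1 TPM in PP or within 2-fold of their PP level. The PH and SC-β values that chose the 555 and 2527 genes enter the shares above, so the shares are a description on the deposited scale.

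Host transcripts of 2 neural microRNAs, miR-9 and miR-124, were among the genes with the largest PH excess. MiR-9 is a microRNA of neural progenitors and is processed from hairpins at 3 loci. C1orf61 (now MIR9-1HG) spans chr1:156404252-156429548 and holds the hairpin MIR9-1, LINC00461 (MIR9-2HG) spans chr5:88507546-88691057 and holds MIR9-2, and LINC00925 (MIR9-3HG) spans chr15:89361579-89398488 and holds MIR9-3, all on GRCh38. The mature sequences are shown because the 3 hairpins give the same pair of arms, so that the 3 host transcripts can supply the same products. Capitals mark the seed, bases 2 to 8 from the 5′ end, and the sequences are those of RefSeq (GRCh38.p14).
hsa-miR-9-5p: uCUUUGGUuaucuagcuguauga
hsa-miR-9-3p: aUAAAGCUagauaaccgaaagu
The mature microRNAs were not measured, and the values that follow are of the long host transcripts.

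LINC00461 had the largest PH excess of the symbols left by the filter for clone-type names. Its log2 ratio was -7.36, and it had at most 0.0482 TPM in hESCs, DE, PGT and PP. C1orf61 was second at 109.7 TPM in PH and 0.105 TPM in SC-β organoids (log2 ratio -6.65). It was also detected earlier in the series, at 3.88 TPM in hESCs and 6.77 TPM in DE, and was down to 0.481 TPM in PP. LINC00925 was the fourth, with a log2 ratio of -5.57. The hosts of all 3 miR-9 hairpins were thus within the 4 genes of largest PH excess, and each was lower in every other stage than in PH. MIR124-2HG, a host of miR-124 in neurons, was at 259.7 TPM in PH and 8.81 TPM in SC-β organoids (log2 ratio -4.73), and LINC00599, which hosts another miR-124 hairpin, was at 79.5 TPM in PH and 1.14 TPM in SC-β organoids (log2 ratio -5.23). Of 526 microRNA host genes at 10 TPM or more, 29 (5.51%) were higher in PH and 114 (21.7%) in SC-β organoids, shares close to the 4.9% and 22.3% of all genes. MIR124-2HG and LINC00599 are not counted in this tally, which rests on the RefSeq hairpins used here. Host names removed by a filter for clone-type names are also missing from it. SCP2 was counted as the host of MIR26A2 only through a synonym of CTDSP2, and that match may be wrong. SCP2 was not called, with a log2 ratio of 0.16.

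**Figure D3:**
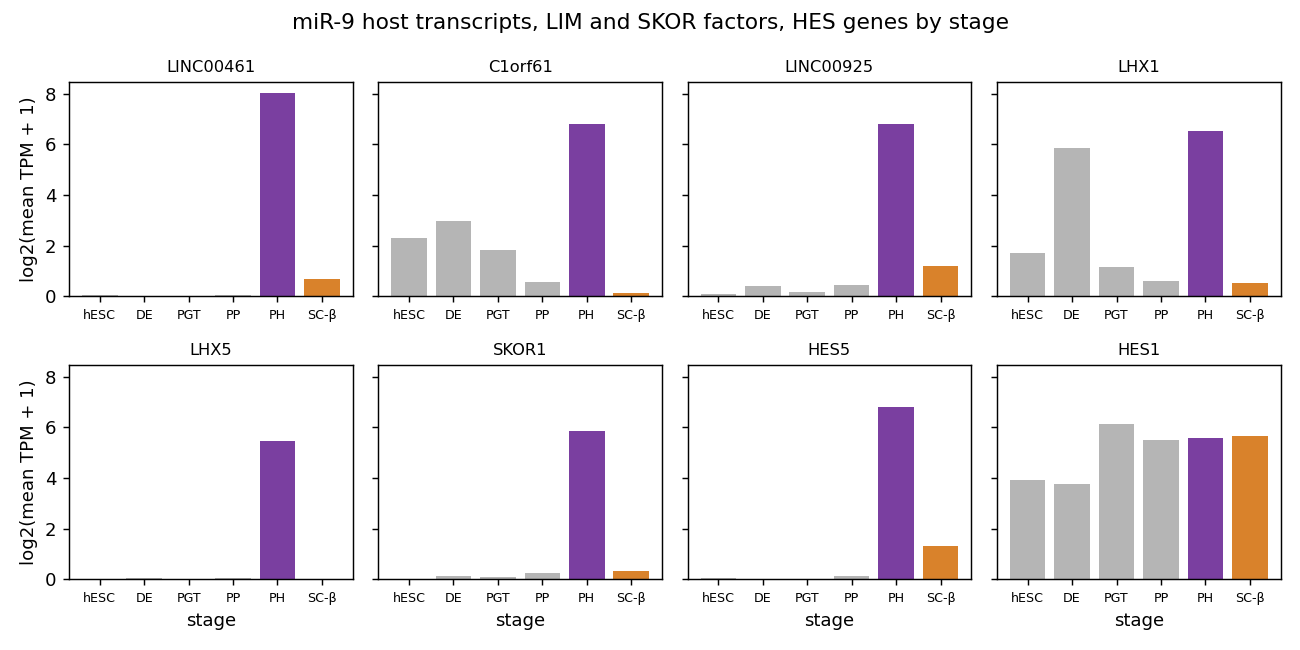
Bars give log2 of the authors' mean TPM + 1 at the 6 stages for the 3 miR-9 host transcripts, the LIM factors LHX1 and LHX5, SKOR1, and the Notch targets HES5 and HES1, with PH in purple and SC-β organoids in orange. All but HES1 are tallest in PH, LHX1 has a second peak in DE, and HES1 stands at a similar height in PH, SC-β organoids and PP.

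Transcription factors of the midbrain, hindbrain and spinal cord were mostly higher in PH. Of the 20 listed, 19 had a row and 10 reached 10 TPM in either stage, of which 7 were higher in PH and 2 in SC-β organoids. Those 19 had a median log2 ratio of -1.90 as deposited and -2.09 after rescaling. LHX1 and LHX5, LIM homeodomain factors of spinal interneurons, had log2 ratios of -5.99 and -5.46. LHX1 was at 92.1 TPM in PH and 0.461 TPM in SC-β organoids, after a first peak of 56.8 TPM in DE, where it is a known regulator of early endoderm and mesoderm. SKOR1, a corepressor of dorsal spinal interneurons, had a log2 ratio of -5.51. PAX2, a factor of inhibitory interneurons that is also used in the kidney, was at 26.4 TPM in PH and 1.09 TPM in SC-β organoids (log2 ratio -3.71).

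GBX2, which acts at the border of midbrain and hindbrain, was at 31.3 TPM in PH and 1.55 TPM in SC-β organoids. LBX1, a factor of dorsal spinal interneurons, was at 24.4 TPM in PH and 1.97 TPM in SC-β organoids and was listed at 0 TPM in PP. The exceptions on this list were GATA2, at 0.746 TPM in PH and 13.3 TPM in SC-β organoids, and EGR2, at 0.481 TPM in PH and 11.3 TPM in SC-β organoids, which are also expressed outside the nervous system. Neural crest and peripheral neuron genes were split in the same way. Of 8, 6 reached 10 TPM, of which 3 were higher in PH and 2 in SC-β organoids, with a median of -0.68 (-1.07 after rescaling). FOXD3 and TFAP2B, early neural crest factors, had log2 ratios of -3.09 and -2.58, and POU4F1, a factor of sensory neurons, was at 23.1 TPM in PH and 2.16 TPM in SC-β organoids (log2 ratio -2.93). SNAI2 and ETS1, which are shared with mesenchyme, went the other way at 2.04 and 2.23.

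Forebrain and eye factors were not part of this. Of 14 genes, 8 were below 1 TPM in both stages, OTX2, SIX3 and RAX among them. The 3 that reached 10 TPM were higher in SC-β organoids: OTX1 at 0.0515 TPM in PH and 15.2 TPM in SC-β organoids, DLX5 at 5.02 TPM in PH and 19.4 TPM in SC-β organoids and EMX2 at 6.18 TPM in PH and 13.7 TPM in SC-β organoids. The last of these dropped below 2-fold after rescaling. The median of the list was 0.57 as deposited and 0.37 after rescaling.

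HOX genes mark position along the body axis, with low paralogue numbers in the hindbrain and high numbers in the trunk and tail. The HOXB cluster carried most of the difference. Its 10 genes with a row summed to 585 TPM in PH, 103 TPM in SC-β organoids and 89.9 TPM in PP, and of the 8 that reached 10 TPM, 7 were called higher in PH. HOXB9, the most posterior of them at this level, was at 118 TPM in PH and 3.43 TPM in SC-β organoids (log2 ratio -4.75) and at 0.171 TPM in PP. HOXB8 was at 81.6 TPM in PH and 4.44 TPM in SC-β organoids (log2 ratio -3.93). HOXB6 and HOXB7 had log2 ratios of -3.22 and -2.82, and HOXB2, of the hindbrain end, one of -2.59. HOXB4 was the one gene of the 8 not called as deposited, at 23.8 TPM in PH and 11.8 TPM in SC-β organoids, and it was called after rescaling.

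In the other clusters fewer genes were called. The HOXA genes summed to 196 TPM in PH and 128 TPM in SC-β organoids, and HOXA6 alone was called as deposited, at 34.1 TPM in PH and 4.17 TPM in SC-β organoids (log2 ratio -2.76). HOXA5 was called too after rescaling (-1.22). Genes of HOXD summed to 85.5 and 48.7 TPM and the HOXC genes to 74.8 and 86.1 TPM, with no gene called in either as deposited. After rescaling HOXD3 and HOXD4 were called higher in PH (-1.40 and -1.45). HOXC5, at 26.1 and 39.2 TPM, and HOXC6, at 6.59 and 10.8 TPM, had their higher value in SC-β organoids, and both log2 ratios stayed above 0 after rescaling (0.082 and 0.18). Over paralogue groups 1 to 5, 3 of 11 genes at 10 TPM or more were higher in PH (7 after rescaling) and the median of the 15 was -0.73 (-1.22 after rescaling). In groups 6 to 13 it was 5 of 6 on either scale, and the median of the 19 with a row was 0.075 (0.053). As many as 8 of those were below 1 TPM in both stages. HOXD10, HOXA11, HOXD11, HOXA13 and HOXD13, from the posterior end of the clusters, were between 0 and 0.0240 TPM in PH and between 0.600 and 1.16 TPM in SC-β organoids.

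**Figure D4:**
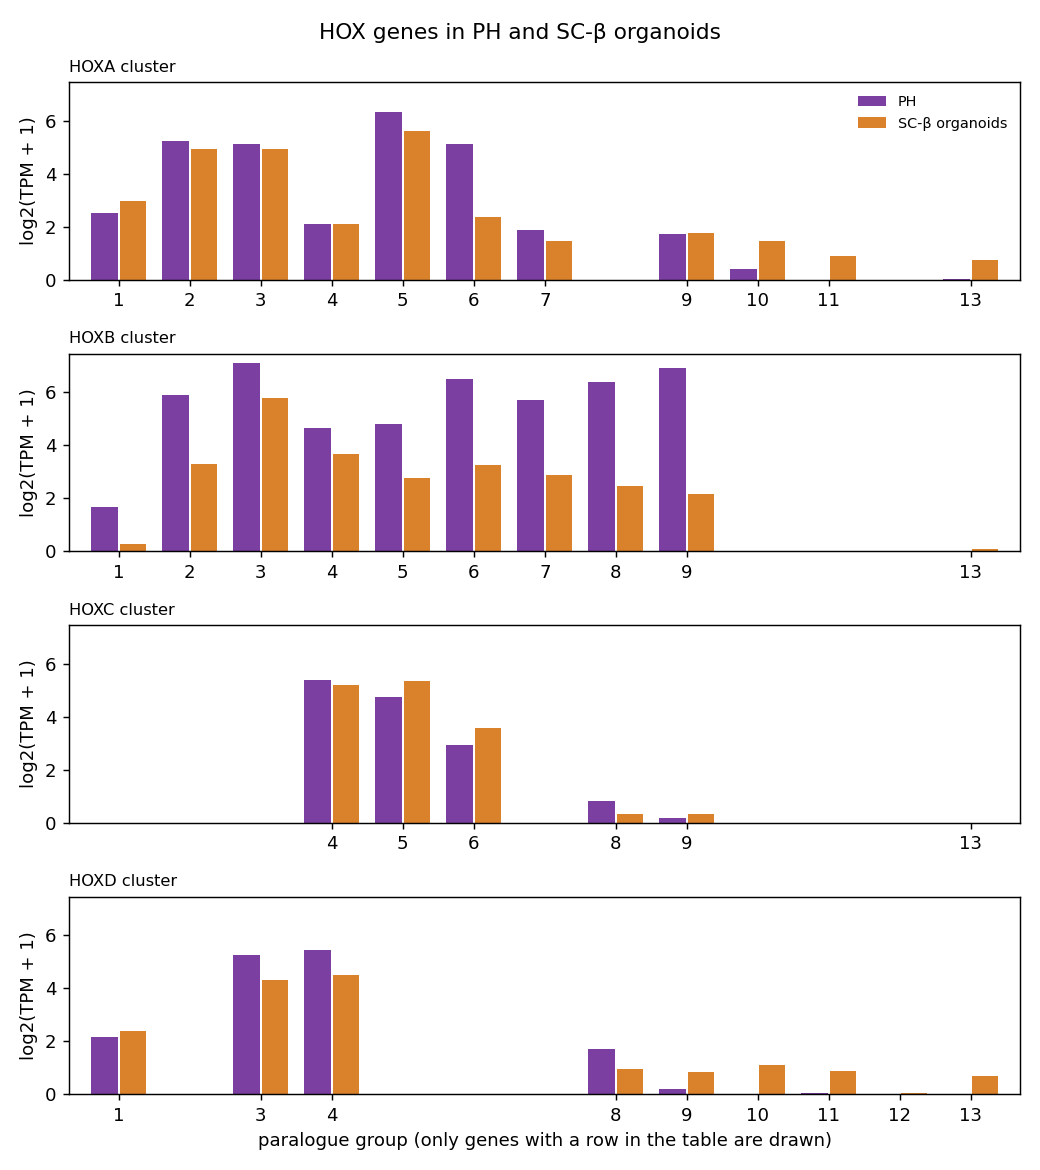
Bars give log2 of the authors' mean TPM + 1 for every HOX gene with a row, in PH (purple) and SC-β organoids (orange), in 1 panel per cluster and ordered by paralogue group. In the HOXB panel the purple bars stand above the orange ones from group 1 to group 9, while the HOXC panel shows bars of similar height.

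Neural progenitor genes were mostly higher in PH. All 19 listed had a row, 16 reached 10 TPM, and of these 12 were higher in PH, 1 was higher in SC-β organoids and 3 were less than 2-fold apart. The median of the 19 was -1.45, and -1.90 after rescaling. NEUROG2, a proneural factor that starts neuronal differentiation, was at 19.6 TPM in PH and 0.662 TPM in SC-β organoids. SOX3, a factor of neuroectoderm, was at 16.5 TPM in PH and 1.15 TPM in SC-β organoids and SOX1, below 10 TPM, at 5.42 and 0.462 TPM. PAX3, a factor of the dorsal neural tube and neural crest that is also used in muscle precursors, did not separate the stages, at 97.3 TPM in PH and 72.6 TPM in SC-β organoids. The exception was SLC1A3, a glutamate transporter of radial glia and astrocytes, at 26.4 TPM in PH and 100.1 TPM in SC-β organoids (log2 ratio 1.88).

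Notch ligands, receptors and targets did not share a direction. Of 16 genes, 12 reached 10 TPM, 7 were higher in PH and 1 in SC-β organoids, and the median of the 16 was -0.058 (-0.55 after rescaling). Among ligands, DLL1 and DLL3, which neuronal precursors express, were at 76.5 TPM in PH and 4.20 TPM in SC-β organoids (DLL1) and at 24.2 and 1.52 TPM (DLL3), whereas JAG1 was at 59.6 and 51.1 TPM. Among receptors NOTCH1 was at 62.8 TPM in PH and 18.5 TPM in SC-β organoids (log2 ratio -1.71), while NOTCH2 was at 48.5 TPM in PH and 97.1 TPM in SC-β organoids and NOTCH3 at 36.8 and 48.5 TPM. LFNG, which glycosylates Notch, and NRARP, a feedback inhibitor, had log2 ratios of -1.80 and -2.17. HES6, which antagonises HES1, was at 68.6 TPM in PH and 6.32 TPM in SC-β organoids. HES5 had a log2 ratio of -5.47 and was below 0.1 TPM in hESCs, DE, PGT and PP, whereas HES1, another target, was at 46.5 TPM in PH and 50.0 TPM in SC-β organoids. HEY1 was called higher in SC-β organoids, at 10.5 TPM in PH and 22.6 TPM in SC-β organoids, and dropped below 2-fold after rescaling.

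HES5 and HES1 are both textbook targets of RBPJ, the DNA-binding partner of Notch, so the 250 bases before their start sites are shown (RefSeq, GRCh38.p14). The motif GTGGGAA was searched on both strands. It occurs in 5.46% of 27305 promoters of that length and in 4 of the 13 promoters found for the Notch list (HES1, HES5, HEY2 and HEYL). Capitals mark the matches, with TTCCCAC where the match is on the reverse strand. HES5 lies on the minus strand at chr1:2530264-2530513 and HES1 on the plus strand at chr3:194135898-194136147.
HES5: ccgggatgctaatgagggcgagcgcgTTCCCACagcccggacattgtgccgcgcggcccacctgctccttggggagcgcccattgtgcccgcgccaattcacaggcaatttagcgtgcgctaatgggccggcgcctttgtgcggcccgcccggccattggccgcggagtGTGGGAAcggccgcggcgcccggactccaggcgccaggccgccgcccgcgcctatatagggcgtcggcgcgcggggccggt
HES1: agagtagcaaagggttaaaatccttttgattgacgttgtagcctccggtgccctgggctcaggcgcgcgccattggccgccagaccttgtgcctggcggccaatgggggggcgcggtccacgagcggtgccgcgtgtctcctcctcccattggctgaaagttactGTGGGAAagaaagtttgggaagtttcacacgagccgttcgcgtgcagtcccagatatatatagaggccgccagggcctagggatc
HES5 had 2 matches, 224 and 81 bases before the start, and HES1 had 1, at 85 bases. Both promoters therefore hold the letters near the same distance from the start, while HES5 was called higher in PH and HES1 was not called. A match describes the sequence and does not show binding.

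Neuronal genes had the same direction. Of 16 genes of the cytoskeleton and synapse, 15 reached 10 TPM, 12 were higher in PH and 1 in SC-β organoids, with a median of -1.88 (-2.36 after rescaling). TUBB3, the neuronal beta-tubulin, was at 545 TPM in PH and 54.3 TPM in SC-β organoids (log2 ratio -3.30), as the sum of 2 rows. STMN2, a microtubule regulator of growing axons, was at 301 TPM in PH and 31.7 TPM in SC-β organoids. ELAVL3 and INA, an RNA-binding protein and an intermediate filament of neurons, had log2 ratios of -3.99 and -3.98, and ELAVL4 and DCX, both markers of young neurons, -3.38 and -2.74. In contrast SYT1, a calcium sensor of synaptic and hormone granules, was at 39.1 TPM in PH and 40.9 TPM in SC-β organoids. NEFM, a neurofilament, was at 25 TPM in PH and 61.8 TPM in SC-β organoids and dropped below 2-fold after rescaling.

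The listed enzymes and transporters that define transmitter types were low in SC-β organoids. TPH1 and DDC, given below with the enterochromaffin genes, are not on this list and went the other way. Of 10, 4 reached 10 TPM and all 4 of those were higher in PH, and the median of the 10 was -1.91 (-2.22 after rescaling). SLC6A5, the glycine transporter of inhibitory neurons, was at 24.7 TPM in PH and 0.123 TPM in SC-β organoids (log2 ratio -4.52). GAD1 and GAD2, which make GABA, were at 19.7 TPM in PH and 1.05 TPM in SC-β organoids (GAD1) and at 22.6 and 3.82 TPM (GAD2). SLC17A6, the vesicular transporter of glutamatergic neurons, was at 17 TPM in PH and 2.14 TPM in SC-β organoids. CHAT, which makes acetylcholine, stayed at 0.410 and 0.166 TPM, and TH, which makes dopamine precursors, at 5.14 and 1.13 TPM. Of 8 markers of glia, 7 had the higher value in SC-β organoids as deposited, and the median of the 8 was 1.09 (0.67 after rescaling). Of the 2 that reached 10 TPM, 1 was called higher in SC-β organoids as deposited and none after rescaling. GFAP, of astrocytes, was at 0.122 and 0.269 TPM.

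Among the 15 genes of largest PH excess, several more belong to neurons. ATCAY, a neuronal protein linked to ataxia, was at 67.6 TPM in PH and 1.16 TPM in SC-β organoids. NCAN, a proteoglycan of the brain matrix, was at 40.9 TPM in PH and 0.482 TPM in SC-β organoids. CNTN2, an adhesion molecule of axons, was at 129.7 TPM in PH and 4.40 TPM in SC-β organoids (log2 ratio -4.60). Outside this group, MASP1, a protease of the lectin pathway of complement, was at 55.8 TPM in PH and 0.892 TPM in SC-β organoids (log2 ratio -4.91).

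Islet hormones were higher in SC-β organoids, with 1 exception. Of 7, 5 reached 10 TPM and 4 of those were higher in SC-β organoids. The summed level of the 7 was 116 TPM in PH and 3328 TPM in SC-β organoids, and their median log2 ratio was 2.38 (1.99 after rescaling). Glucagon made up most of the SC-β sum. GCG had a log2 ratio of 6.63 and INS, which encodes insulin, one of 5.25. SST, which encodes somatostatin, was at 65.8 TPM in PH and 203 TPM in SC-β organoids (log2 ratio 1.61). PPY, which encodes pancreatic polypeptide, was listed at 0 TPM in PH and at 15.1 TPM in SC-β organoids. GHRL, which encodes ghrelin, was at 15.7 TPM in PH and 12.7 TPM in SC-β organoids, close to its 18.1 TPM in PP. IAPP, which is co-secreted with insulin, remained at 1.83 TPM in SC-β organoids.

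Endocrine transcription factors went both ways. Of 16, 7 reached 10 TPM in either stage, of which 4 were higher in SC-β organoids and 2 in PH, with a median of 1.54 over the 16 (1.13 after rescaling). RFX6, a factor of islet endocrine cells, was at 0.124 TPM in PH and 14.2 TPM in SC-β organoids. NEUROD1 and ISL1, which neurons also use, were at 3.71 TPM in PH and 21 TPM in SC-β organoids (NEUROD1) and at 5.79 and 18.9 TPM (ISL1). ST18 and INSM1, zinc finger factors shared by neurons and endocrine precursors, were higher in PH, at 74.4 TPM in PH and 15.5 TPM in SC-β organoids (ST18, log2 ratio -2.20) and 26.5 and 8.0 TPM (INSM1). PAX6, a regulator of both islet and neural cells, was at 17.2 TPM in PH and 9.93 TPM in SC-β organoids. PAX4 and NKX2-2, which act in the formation of beta cells, were listed at 0 TPM in PH and at 2.25 and 2.26 TPM in SC-β organoids.

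The secretory machinery was less separated than the hormones. Of 11 granins and prohormone-processing genes, 9 reached 10 TPM and 4 were higher in SC-β organoids. After rescaling the calls were 2 against 1 in PH. The median was 0.41, and 0.088 after rescaling. CHGA, a core protein of hormone granules, was at 70.0 TPM in PH and 805 TPM in SC-β organoids (log2 ratio 3.50), and SCG2 was at 10.9 TPM in PH and 60.4 TPM in SC-β organoids. CPE and PAM, which trim and amidate peptide hormones, were at 81 TPM in PH and 108 TPM in SC-β organoids (CPE) and at 62.3 and 78.3 TPM (PAM). SCG3, another granin, was at 16.2 TPM in PH and 8.45 TPM in SC-β organoids. Neurons also make granins, so these genes mark regulated secretion in both lineages.

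Genes of glucose sensing and the insulin granule followed the hormones in part. Of 14 listed, 13 had a row and 5 reached 10 TPM, 3 higher in SC-β organoids and 1 in PH, with a median of 0.91 (0.63 after rescaling). SLC30A8, the zinc transporter of insulin granules, was at 0.451 TPM in PH and 27.1 TPM in SC-β organoids (log2 ratio 4.28). ABCC8, the sulfonylurea receptor, was at 4.54 TPM in PH and 38.3 TPM in SC-β organoids and CACNA1D, a calcium channel subunit, at 1.73 and 13.4 TPM. PTPRN2, a protein of dense-core vesicles, was higher in PH at 23.3 TPM in PH and 7.86 TPM in SC-β organoids. Genes of serotonin-making enterochromaffin cells included LMX1A, at 1.19 TPM in PH and 32.2 TPM in SC-β organoids (log2 ratio 3.92), DDC, which makes serotonin and dopamine from their precursors, at 1.01 TPM in PH and 19 TPM in SC-β organoids, and TPH1, the first enzyme of serotonin synthesis, at 2.0 TPM in PH and 14.2 TPM in SC-β organoids. Of 7, 5 reached 10 TPM and 4 were higher in SC-β organoids, with a median of 1.02 (0.59). After rescaling, 3 were higher there and 1 in PH. CBLN1, a synaptic protein, was the member with the higher value in PH, at 15.7 and 8.84 TPM.

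Exocrine enzymes were low in both. Of 17 genes of acinar and ductal pancreas, 16 had a row, 6 reached 10 TPM and all 6 of those were higher in SC-β organoids, 3 after rescaling, with a median of 0.80 (0.43). SPP1, a secreted protein of duct cells among others, was at 4.74 TPM in PH and 96.1 TPM in SC-β organoids (log2 ratio 4.08), and CFTR, the chloride channel of ducts, was at 1.49 TPM in PH and 12.5 TPM in SC-β organoids. PRSS1, which encodes trypsinogen, was at 7.18 and 19.2 TPM and CPA1 at 1.87 and 0.602 TPM. PTF1A, chosen here after its values were seen, is a factor of pancreatic acinar cells and of inhibitory neurons of cerebellum and spinal cord. It was at 7.61 TPM in PH and 0.0229 TPM in SC-β organoids, the reverse of the list, and 1.02 TPM in PP.

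Secreted proteins of the liver had the largest median of the 43 lists at the pseudocount of 1 TPM. Of 16 genes of liver and yolk sac, 11 reached 10 TPM, and all 11 of those were higher in SC-β organoids. The 16 summed to 52.5 TPM in PH and 1564 TPM in SC-β organoids, with a median log2 ratio of 3.54 (3.08 after rescaling). TTR, a carrier of thyroid hormone and retinol that islet cells also make, accounted for most of that sum, at 35.9 TPM in PH and 1229 TPM in SC-β organoids (log2 ratio 5.06). ALB, which encodes albumin, was at 0.274 TPM in PH and 39.3 TPM in SC-β organoids (log2 ratio 4.98) and 0.649 TPM in PP. FGB, a fibrinogen chain, was at 0.704 TPM in PH and 39.9 TPM in SC-β organoids and APOB, a structural apolipoprotein, at 0.230 and 22.9 TPM. AFP, the fetal counterpart of albumin, was at 1.23 TPM in PH and 34.3 TPM in SC-β organoids. Unlike ALB, both FGB and AFP were already at 22.8 and 27.1 TPM in PP, above their PH values.

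Promoters of ALB and FGB are shown because HNF1 sites near the start are a known feature of liver genes. The search used GTTAAT, one side of the HNF1 palindrome, on both strands. It is a short string that occurs in 6.22% of the 27305 promoters. Of 12 promoters found for the liver list, 5 hold it (AFP, ALB, APOH, FGA and FGB). The sequences are the 250 bases before the start on the plus strand, chr4:73404037-73404286 for ALB and chr4:154562730-154562979 for FGB (RefSeq, GRCh38.p14), with the match in capitals and ATTAAC where it lies on the reverse strand.
ALB: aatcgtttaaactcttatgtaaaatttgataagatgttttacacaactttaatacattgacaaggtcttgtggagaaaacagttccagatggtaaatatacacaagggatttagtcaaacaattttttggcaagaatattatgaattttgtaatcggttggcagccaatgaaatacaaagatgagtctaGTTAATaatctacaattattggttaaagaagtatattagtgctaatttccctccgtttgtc
FGB: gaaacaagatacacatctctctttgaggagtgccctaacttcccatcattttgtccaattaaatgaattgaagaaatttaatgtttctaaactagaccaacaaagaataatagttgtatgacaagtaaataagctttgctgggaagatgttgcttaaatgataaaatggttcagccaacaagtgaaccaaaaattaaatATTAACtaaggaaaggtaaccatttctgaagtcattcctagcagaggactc
The match began 61 bases before the start of ALB and 51 bases before that of FGB. A short string found in a window says nothing by itself about which factor binds there.

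Regulators of gut endoderm were low in PH. Of 13, 4 reached 10 TPM, with 3 higher in SC-β organoids, and the median of the 13 was 1.57 (1.16 after rescaling). After rescaling the calls were 3 against 1 in PH. GATA6, a factor of endoderm and heart, was at 0.848 TPM in PH and 11.9 TPM in SC-β organoids (log2 ratio 2.80), and FOXA1, a pioneer factor of endoderm, at 1.96 TPM in PH and 14.7 TPM in SC-β organoids. KLF5, of gut epithelium, was at 7.06 TPM in PH and 38.2 TPM in SC-β organoids. PROX1, a factor of liver and pancreas buds that neural progenitors also use, had its higher value in PH, at 11.1 and 5.44 TPM.

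Epithelial junction genes had the same direction. Of 13, 11 reached 10 TPM and 10 were higher in SC-β organoids (6 after rescaling), with a median of 1.44 (0.95). KRT8, a keratin of simple epithelia, was at 21.4 TPM in PH and 209.6 TPM in SC-β organoids (log2 ratio 3.23) and 288 TPM in PP. CDH1, the adhesion molecule E-cadherin, was at 17.7 TPM in PH and 71.3 TPM in SC-β organoids, and ESRP1, an epithelial splicing regulator, at 5.48 and 24.1 TPM. EPCAM was at 29.3 TPM in PH and 79.4 TPM in SC-β organoids after 179.9 TPM in PP. PH was thus below both PP and SC-β organoids for these 4 genes.

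Mesenchymal genes were present in both stages and mostly higher in SC-β organoids. Of 16 transcription factors, 9 reached 10 TPM, 7 higher in SC-β organoids (6 after rescaling) and 1 in PH, with a median of 1.56 (1.15). HAND2, a factor of heart, limb and gut mesenchyme, was at 0.764 TPM in PH and 23.6 TPM in SC-β organoids (log2 ratio 3.80), and FOXC1 was at 2.39 TPM in PH and 24.5 TPM in SC-β organoids. PRRX1, of limb and craniofacial mesenchyme, was at 52.9 TPM in PH and 213 TPM in SC-β organoids. EBF2 was the one higher in PH, at 19.4 TPM in PH and 8.42 TPM in SC-β organoids.

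Matrix genes were divided. Of 18 fibroblast matrix genes, 16 reached 10 TPM and 9 were higher in SC-β organoids (6 after rescaling, when 2 were higher in PH), with a median of 0.98 (0.49). FN1, which encodes fibronectin, was at 86.2 TPM in PH and 609 TPM in SC-β organoids (log2 ratio 2.80) and 1232 TPM in PP. POSTN, which encodes periostin, was at 59.4 TPM in PH and 283 TPM in SC-β organoids, and COL3A1, a fibrillar collagen, at 349 TPM in PH and 771 TPM in SC-β organoids. COL1A1, a fibrillar collagen, and COL6A2, a microfibrillar one, were at 42.9 TPM in PH and 34.1 TPM in SC-β organoids (COL1A1) and at 129 and 75 TPM (COL6A2). COL1A2, the partner chain of COL1A1, was among the most abundant matrix RNAs of both stages, at 435 TPM in PH and 509 TPM in SC-β organoids.

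Smooth muscle genes were higher in SC-β organoids in each of the 5 of 8 that reached 10 TPM, with a median of 2.08 over the 8 (1.60 after rescaling). ACTA2, the smooth muscle actin, was at 3.57 TPM in PH and 73.1 TPM in SC-β organoids (log2 ratio 4.02). TAGLN and CNN1, which bind actin in smooth muscle, were at 13.2 TPM in PH and 117 TPM in SC-β organoids (TAGLN) and at 1.01 and 12.6 TPM (CNN1). MYH11, the myosin of mature smooth muscle, was at 0.248 and 1.42 TPM. Genes of skeletal and cardiac muscle stayed low. None of 13 reached 10 TPM, MYF5 was listed at 0 TPM in both, MYOD1 was at 0.0702 and 0.114 TPM, and the median was 0.33 (0.13).

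Cartilage genes differed gene by gene. Of 14, 8 reached 10 TPM, with 2 higher in SC-β organoids, 1 in PH and a median of 0.42 (0.13). COL2A1, the collagen of cartilage and notochord, was at 26.2 TPM in PH and 133 TPM in SC-β organoids (log2 ratio 2.30), and COL9A3 was higher in PH at 18.7 TPM in PH and 8.43 TPM in SC-β organoids. ACAN, the cartilage proteoglycan, was at 0.318 and 5.59 TPM, and SOX9 was at 27.2 and 25.2 TPM. Markers of vessel and blood cells were low in both stages. PECAM1, CDH5 and VWF, which define endothelium, stayed below 1 TPM in both, as did the blood marker PTPRC, and HBA1 and HBG1 were listed at 0 TPM. Of 10 endothelial genes only EGFL7 reached 10 TPM, at 4.89 and 13 TPM (list median 0.49, 0.27 after rescaling), and none of the 11 blood genes with a row did.

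**Figure D5:**
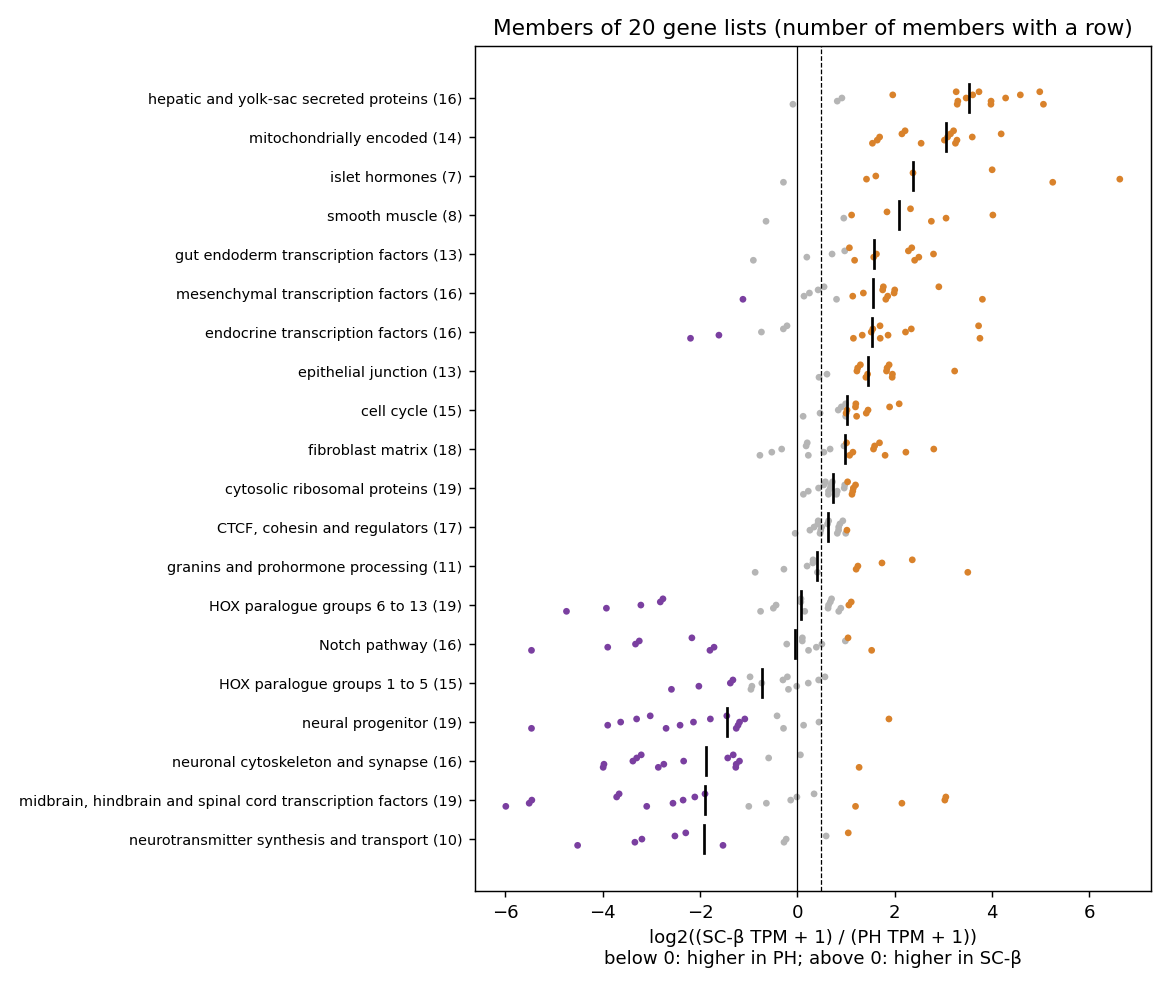
Each point is a gene of 1 of 20 lists, at its log2 ratio of SC-β organoids over PH, coloured where the means were at least 2-fold apart at any level, with the list median as a black bar and the median of the 11330 genes (0.49) as a dashed line. Medians run from -1.91 for neurotransmitter genes to 3.54 for liver secreted proteins, and members of the Notch and HOX lists spread to both sides.

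In the Hedgehog pathway 4 of 7 genes at 10 TPM or more were higher in SC-β organoids (3 after rescaling) and none in PH (1 after rescaling), with a median of 1.35 (0.86). HHIP and PTCH1, inhibitors that the pathway itself induces, were at 4.26 TPM in PH and 20.9 TPM in SC-β organoids (HHIP) and at 20.3 and 53 TPM (PTCH1). GLI3, a transcription factor of the pathway, was at 18.8 TPM in PH and 78.9 TPM in SC-β organoids (log2 ratio 2.01), while GLI2 was at 20.6 and 11.5 TPM. The ligand SHH was at 2.42 TPM in PH and 10.9 TPM in SC-β organoids.

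ALDH1A1 and ALDH1A2, which make retinoic acid, were at 5.25 TPM in PH and 145 TPM in SC-β organoids (ALDH1A1, log2 ratio 4.55) and 1.15 and 25.6 TPM (ALDH1A2). CRABP2, a carrier of retinoic acid, was at 72.3 TPM in PH and 263 TPM in SC-β organoids, whereas CRABP1 was at 374 and 408 TPM. RARA, a receptor, had its higher value in PH at 48 and 23.5 TPM, just under 2-fold. Of 14 genes of the retinoic acid pathway, 10 reached 10 TPM and 5 were higher in SC-β organoids, with a median of 0.94 (0.51), and after rescaling the calls were 4 against 3 in PH.

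Targets and antagonists of TGF-β and BMP signals were higher in SC-β organoids for 9 of the 14 that reached 10 TPM. The median was 1.34 over 15 (0.86). After rescaling, 6 were higher in SC-β organoids and 1 in PH. BAMBI, a decoy receptor, was at 7.15 TPM in PH and 51.9 TPM in SC-β organoids (log2 ratio 2.70), and GREM1, a BMP antagonist, at 1.54 and 10.5 TPM. ID1, a direct BMP target, was at 116 TPM in PH and 314 TPM in SC-β organoids and ID4 at 103 and 64.3 TPM. In the WNT pathway 5 of 13 were higher in SC-β organoids and 2 in PH, with a median of 0.56 (0.21). WNT5A was at 6.13 TPM in PH and 64.3 TPM in SC-β organoids (log2 ratio 3.20) and SFRP1, a secreted inhibitor, at 18.5 TPM in PH and 141 TPM in SC-β organoids. WNT7B, a ligand of the nervous system and of epithelia, was higher in PH at 17.2 and 5.27 TPM, as was DKK3 at 68.7 and 20.9 TPM. Of 8 thyroid hormone response genes, DIO3, which inactivates the hormone, was called, at 0.289 TPM in PH and 10.6 TPM in SC-β organoids. KLF9, a known target, was at 0.358 and 8.62 TPM, and the median was 1.16 (0.86).

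Several growth and oncofetal genes were lower in PH than in both PP and SC-β organoids. LIN28A, an RNA-binding protein that blocks let-7 processing, was at 0.0162 TPM in PH and 27.5 TPM in SC-β organoids (log2 ratio 4.81) and 169 TPM in PP. Its paralogue LIN28B was at 7.07 TPM in PH and 35.2 TPM in SC-β organoids, after 75.1 TPM in PP, and HMGA2, a let-7 target, at 29.6 TPM in PH and 235 TPM in SC-β organoids. Of 7 oncofetal genes, all reached 10 TPM and 5 were higher in SC-β organoids on either scale (median 1.69, 1.19 after rescaling). H19, an imprinted growth-limiting RNA that hosts miR-675, was at 98.6 TPM in PH and 987 TPM in SC-β organoids (log2 ratio 3.31), and IGF2, its imprinted neighbour, at 5.17 and 28.6 TPM. IGFBP3 and IGFBP7, which bind insulin-like growth factors or related ligands, had log2 ratios of 3.10 and 3.09. CDKN1C, an imprinted cell cycle inhibitor, was higher in PH at 49 TPM in PH and 22.7 TPM in SC-β organoids, as was IGFBP2 at 215 and 106 TPM. For the 14 genes of that list the calls were 6 and 2, with a median of 1.26 (0.77). Pluripotency genes were low in both, with NANOG at 0.0284 and 0.0215 TPM and POU5F1 at 0.425 and 0.377 TPM. LIN28A was the one of 8 higher in SC-β organoids, and after rescaling 1 was higher in PH. The list median was 0.24 (0.17).

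Proliferation genes were moderately higher in SC-β organoids as deposited. All 15 reached 10 TPM, 9 were called higher there and none in PH, with a median of 1.02. After rescaling the median was 0.53 and 2 calls were left. TYMS and RRM2, which supply deoxynucleotides, were at 18.2 TPM in PH and 80.8 TPM in SC-β organoids (TYMS, log2 ratio 2.09) and 17.2 and 66.9 TPM (RRM2). MKI67, the widely used proliferation marker, was at 24.9 TPM in PH and 34.8 TPM in SC-β organoids. PLK1, a mitotic kinase, was at 18.6 and 20.3 TPM.

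Stress and hypoxia genes included a few large PH values. HSPA6, a strictly inducible HSP70, was at 36.3 TPM in PH and 0.470 TPM in SC-β organoids (log2 ratio -4.67) and at 0.0220 TPM in PP. HSPA1A and HSPA1B were at 173 TPM in PH and 16.7 TPM in SC-β organoids (HSPA1A) and at 221 and 21 TPM (HSPA1B), and these near-identical genes share reads, so the division between them is uncertain. DNAJB1, their co-chaperone, was at 156 TPM in PH and 56.3 TPM in SC-β organoids. In contrast HSPA5 and XBP1, of the endoplasmic reticulum response, were higher in SC-β organoids at 60.6 TPM in PH and 142 TPM in SC-β organoids (HSPA5) and 23.4 and 55.6 TPM (XBP1), though not after rescaling. Of 15 stress genes 12 reached 10 TPM, with 4 higher in PH and a median of -0.13 (-0.62). Of 14 hypoxia and glycolysis genes 13 reached 10 TPM, 4 higher in PH and 1 in SC-β organoids, with a median of -0.28 (-0.75). BNIP3, a mitophagy receptor, was at 85.2 TPM in PH and 16.8 TPM in SC-β organoids and PDK1, which limits pyruvate entry into mitochondria, at 24.3 and 5.82 TPM. ENO2, the neuronal enolase, was at 75.3 and 15.3 TPM. LDHA, also induced by hypoxia, was at 120.5 and 122 TPM.

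All 15 antigen presentation and interferon genes had the higher value in SC-β organoids as deposited. On that scale the median log2 ratio of all compared genes was itself 0.49. B2M, the shared light chain of class I molecules, was at 17.6 TPM in PH and 184 TPM in SC-β organoids (log2 ratio 3.32). HLA-B, a heavy chain, was at 23.3 TPM in PH and 28.1 TPM in SC-β organoids. Its log2 ratio of 0.26 became -0.22 after rescaling, so the shared direction did not hold on that scale. IFITM3 and IFITM1, interferon-inducible membrane proteins, were at 27 TPM in PH and 191 TPM in SC-β organoids (IFITM3) and at 8.87 and 56.8 TPM (IFITM1). Of 15, 10 reached 10 TPM, 5 higher in SC-β organoids (3 after rescaling), with a median of 1.19 (0.71).

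The machinery of chromatin loops, which the series was made to study, was close to level. Loops are extruded by cohesin and stopped at CTCF. All 17 genes for CTCF, cohesin and their regulators reached 10 TPM and 1 was called, WAPAL (now WAPL), the release factor of cohesin, at 20.4 TPM in PH and 42.4 TPM in SC-β organoids. It was not called after rescaling. The median was 0.62, against 0.49 for all genes, and 0.13 after rescaling. CTCF was at 35.7 TPM in PH and 48.3 TPM in SC-β organoids and NIPBL, the cohesin loader, at 36.7 and 57.9 TPM. RAD21, a core subunit, was at 76.3 and 136 TPM and CHD4, a chromatin remodeller, at 180.1 and 175 TPM.

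Energy and translation genes showed how far the scale matters. Of 18 nuclear genes of oxidative phosphorylation none was called, and their median of 0.44 became -0.051 after rescaling, so that no direction held. Of 19 cytosolic ribosomal protein genes 5 were called higher in SC-β organoids and none after rescaling, with medians of 0.72 and 0.22. RPS6 was at 612 TPM in PH and 1405 TPM in SC-β organoids. The mitochondrially encoded RNAs stood apart from both. All 14 were higher in SC-β organoids on either scale, with a median of 3.06 (2.56 after rescaling). These 14 summed to 3961 TPM in PH and 15353 TPM in SC-β organoids. All genes whose name begins with MT-, a larger set, held 0.607% of TPM in PH and 2.23% in SC-β organoids, against 1.54% in PP. MT-ND2, a subunit of complex I, was at 5.56 TPM in PH and 119 TPM in SC-β organoids (log2 ratio 4.19), MT-ND1 at 20.9 and 263 TPM and MT-CO1, of complex IV, at 1186 and 3704 TPM. The 6 structural RNAs had a median of -0.39 (-0.89 after rescaling), on the side of PH.

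By biotype, 20.7% of 9635 protein-coding genes at 10 TPM or more were higher in SC-β organoids and 4.78% in PH. Of 202 lncRNA genes matched by symbol, the shares were 36.6% and 7.43%. For 428 genes of other biotypes they were 32.9% and 5.37%, and for 1065 genes not matched by symbol 29.7% and 5.26%. A higher SC-β share than that of protein-coding genes was thus not particular to lncRNA genes. Genes listed under older symbols, C1orf61, LINC00925 and LINC00599 among them, are not part of these 202.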

How the data were processed

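RNA-seq of the PH and SC-β stages was analysed, as 2 replicates per stage by the labels. Total RNA was extracted with Trizol. The study's methods name RiboMinus depletion of ribosomal RNA, whereas the labels also name a TruSeq Stranded mRNA kit, and which applies to these libraries is not settled here. For the alignment to hg38 the authors used HISAT2, version 2.2.0. TPM values were calculated by the authors with StringTie, version 2.1.6, and deposited as 1 mean per gene for each of 6 stages. The gene annotation is not given in the sources used here. TPM keeps no depth, and the means keep no replicate spread, so no interval, detection limit or test is given.

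Rows that share a name were summed (50451 rows, 231 repeated names, 49085 names). Genes at 10 TPM or more in either mean were compared by log2((TPM + 1)/(TPM + 1)) and called at 2-fold, without a test. The lists (43, and 5 added after values were seen) were described by counts and by the median over all members with a row. The members and lists were chosen with earlier results of these data known. Named genes were GCG, TWIST1 and FABP7, defining markers, and up to 4 members per list in each direction at 10 TPM or more. The 15 largest log2 ratios in each direction were named too, without the 552 names that a filter for clone-type names removed. That filter also removed some gene symbols, CTCF among them, so these rankings do not cover every symbol. Older symbols were matched to GENCODE 44 and RefSeq (GRCh38.p14), the source of the sequences. Alternatives were a pseudocount of 0.1 TPM, rescaling by the median ratio, totals without structural and mitochondrial RNAs or without the 100 most abundant genes, the highest row in place of the sum, minima of 1 TPM or none, and a 4-fold threshold. Some members of the lists are counted but not reported here by name. The calculation was tested on simulated data. Python 3.11.15 was used with numpy 2.4.6, pandas 2.3.3 and matplotlib 3.10.9.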

Additional observations from a re-analysis of the deposited data

How the results depend on the processing

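No paired analysis was possible because the deposited columns average the replicates, and for the same reason no replicate could be left out. Depth limits cannot be given from TPM. The counts of genes called higher in SC-β organoids and in PH (2527 and 555) became 620 and 223 at 4-fold, 917 and 1003 after rescaling by the median ratio, and 7202 and 1181 with a minimum of 1 TPM or with no minimum, which give the same calls because of the pseudocount of 1 TPM. Without structural and mitochondrially encoded RNAs the PH count was 1212, and without the 100 most abundant genes 1498, with the SC-β count within 1.5 times. Of 211 list medians under the alternatives, 177 kept their side of 2-fold and none that passed it changed sign. After rescaling, the median fell below 2-fold for cell cycle (0.53), enterochromaffin (0.59), glia (0.67), antigen presentation (0.71), the IGF axis (0.77), TGF-β and BMP (0.86), Hedgehog (0.86), thyroid hormone (0.86) and epithelial junction (0.95), and passed it for neural crest (-1.07) and HOX groups 1 to 5 (-1.22). Without structural and mitochondrial RNAs it was 0.63 for cell cycle, 0.80 for enterochromaffin, 0.84 for antigen presentation, 0.89 for the IGF axis, 0.94 for glia, 0.98 for Hedgehog, -1.13 for both neural crest and HOX groups 1 to 5, and 1.11 for glucose sensing. Without the 100 most abundant genes it was 0.50 for the IGF axis, 0.58 for cell cycle, 0.79 for antigen presentation, 0.88 for enterochromaffin, 0.92 for Hedgehog, 0.97 for both glia and TGF-β and BMP, -1.19 for HOX groups 1 to 5, -1.22 for neural crest and 1.28 for glucose sensing. With a pseudocount of 0.1 TPM the medians of forebrain factors (1.03), endothelial genes (1.04), the retinoic acid pathway (1.11) and glucose sensing (2.31) passed 2-fold. Among 452 named genes, 2203 log2 ratios were recomputed, of which 1993 kept their side of 2-fold, 121 dropped below it and 89 passed it, and none that was called changed sign. The shifts follow from the construction of each alternative.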

Other observations

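The genes and lists that follow were chosen after their values were seen, and they carry no test. Squamous epithelial genes were among the largest differences towards SC-β organoids. S100A9 and S100A8, which form calprotectin, were at 1.45 TPM in PH and 386 TPM in SC-β organoids (S100A9, log2 ratio 7.30) and at 1.69 and 106 TPM (S100A8). The log2 ratio of S100A9 was the largest of the symbols left by the filter for clone-type names. KRT13 and KRT4, keratins of wet stratified epithelia, were at 3.66 TPM in PH and 109.9 TPM in SC-β organoids (KRT13) and at 20.4 and 351 TPM (KRT4). KRT1, a keratin of upper epidermal layers, was listed at 0 TPM in PH and at 49.9 TPM in SC-β organoids. KRT5 and KRT14, the keratins of basal cells, were at 1.72 and 2.11 TPM (KRT5) and 0 and 0.0117 TPM (KRT14). Of 16 such genes 8 reached 10 TPM and all 8 of those were higher in SC-β organoids, with a median of 2.2 (1.83 after rescaling).

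Genes of the stomach and gut lining had the same direction. GAST, which encodes the hormone gastrin, was at 0.0220 TPM in PH and 66.1 TPM in SC-β organoids (log2 ratio 6.04) and 9.57 TPM in PP. FABP1, a fatty acid-binding protein of liver and intestine, was at 0.0187 TPM in PH and 35.3 TPM in SC-β organoids, and DPP4, a brush-border peptidase that cleaves incretins, at 0.601 TPM in PH and 55.8 TPM in SC-β organoids. MUC16, a membrane mucin, was at 0.715 and 41.6 TPM, whereas the secreted mucins MUC2 and MUC5AC were at 0.0153 and 0.488 TPM (MUC2) and 0.234 and 0.198 TPM (MUC5AC). Of 14, 8 reached 10 TPM and all 8 of those were higher in SC-β organoids, with a median of 3.32 (2.84). PYGM, the muscle glycogen phosphorylase, was at 1.25 TPM in PH and 189 TPM in SC-β organoids (log2 ratio 6.40), CYP1A1, a target of the aryl hydrocarbon receptor, at 0.0186 and 65.9 TPM, AGT, which encodes angiotensinogen, at 0.856 and 66 TPM, and TYRP1, an enzyme of melanin synthesis, at 0.386 and 49.1 TPM. The short RNAs SNORA74A and MIR7705 were at 0.446 and 139 TPM (SNORA74A) and 0.134 and 47.2 TPM (MIR7705). Because TPM corrects for transcript length, few reads can give a large value for a short RNA, and read numbers are not available here.

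Axon guidance receptors separated within families. ROBO3, which lets commissural axons cross the midline, was at 358 TPM in PH and 14.7 TPM in SC-β organoids (log2 ratio -4.52), ROBO2 was at 68.5 TPM in PH and 18.7 TPM in SC-β organoids and ROBO1 at 111 and 154 TPM. DCC, a netrin receptor, was at 77.2 TPM in PH and 11 TPM in SC-β organoids and its ligand NTN1 at 9.26 and 3.88 TPM. SLIT3 and NRP2 were higher in SC-β organoids, at 4.72 TPM in PH and 38.8 TPM in SC-β organoids (SLIT3) and 23.5 and 131 TPM (NRP2). Of 18, 16 reached 10 TPM, 6 higher in PH (10 after rescaling) and 4 in SC-β organoids (4), and the median was -0.76 (-1.21). Transcription factors of neurogenesis were higher in PH for 12 of 14 genes at that level, out of 21, with a median of -2.80 (-2.82). NHLH2 and MYT1L, of young neurons, were at 41.3 TPM in PH and 0.938 TPM in SC-β organoids (NHLH2) and at 32.3 and 0.928 TPM (MYT1L), and EBF1, at 30.0 and 61.8 TPM, was the exception as deposited. SOX11, a factor of immature neurons, was at 119 and 61.6 TPM.

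Replication-dependent histone genes did not share a direction. Of 18, 5 were higher in SC-β organoids and 2 in PH, beside shares of 22.3% and 4.9% among all 11330 genes. The median was 0.86 (0.36 after rescaling). HIST1H2BB and HIST2H2BE were the PH pair, at 61 TPM in PH and 3.67 TPM in SC-β organoids (HIST1H2BB, log2 ratio -3.73) and 557 and 135 TPM (HIST2H2BE). HIST1H1A and HIST1H2BC were at 8.30 TPM in PH and 50.8 TPM in SC-β organoids (HIST1H1A) and at 107 and 426 TPM (HIST1H2BC).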
